A study of Caenorhabditis elegans with 6 samples.

Results

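The genes described here are the collagen genes of a table of *hlh-11*-responsive genes in *C. elegans*. They were found by symbol, as every row whose WormBase identifier maps to a *col* name, which gave 7 of the 85 genes of the table (*col-81*, *col-95*, *col-129*, *col-139*, *col-144*, *col-150* and *col-180*). The WBcel235 annotation holds 156 *col* genes, and the other members of the family were not analysed here. Polyadenylated RNA came from whole synchronized young adult worms, about 2000 per sample, grown at 20 °C on *E. coli* OP50, with 2 libraries of each of 3 genotypes. These were *hlh-11* knockout (KO), *hlh-11* overexpression (OE) and wild type, all on the N2 background. The study's KO strain carries 1 CRISPR/Cas9 allele that shifts the reading frame of *hlh-11*, a gene for a basic helix-loop-helix transcription factor. The transgene and promoter that raised *hlh-11* in the sequenced OE worms are not given in the sources used here. No level of *hlh-11* was analysed, so the genotypes could not be checked by it. The genes of the table had been picked for opposite changes: 60 had a KO mean above and an OE mean below the wild-type mean, 25 had the reverse, and none had anything else. Direction in either genotype is therefore a property of the choice, and the tests below describe it.

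Cuticle collagens are short triple-helical proteins that the hypodermis, the outer epithelium of the worm, secretes beneath the old cuticle at each moult. Their helices are hydroxylated on proline in the endoplasmic reticulum, trimmed by proteases on the way out and cross-linked into a layered exoskeleton by oxidases. Members of the family are transcribed in waves that follow the moulting cycle, and separate sets of them serve larval and adult cuticles. No individual role in the cuticle is stated here for the 7 genes.

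Levels are in RPKM, reads of a gene per kilobase of its length, scaled to the total of the library, so they can be compared between genes. The 7 genes fell into 2 levels of expression. *col-139*, *col-129* and *col-81* were abundant, with wild-type means above a limit of 100 RPKM, and held ranks 1, 2 and 3 of all 85 genes in every genotype. The other 4 genes were low in the wild type, between 14.2 and 45.3 RPKM in any wild-type library. *col-180*, *col-144*, *col-95* and *col-150* held ranks 51, 59, 63 and 71 there. Reads were recovered from the RPKM steps: with 1 total per library (16538554 to 24023096 reads) and 1 length per gene, all 510 values of the table came out whole to within 1e-06 reads, on a scale that rests on annotated lengths. The abundant genes had 24692 to 55807 reads per library, and the low genes had 26 to 5991.

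The genes lie on 5 chromosomes of WBcel235 and are protein coding, with 1 to 3 exons in the longest transcript and 903 to 1246 exonic bases per gene. *col-139* (WBGene00000712) is on chromosome V from 4652863 to 4653971, *col-129* (WBGene00000703) on chromosome IV from 12108734 to 12110439 and *col-81* (WBGene00000657) on chromosome II from 11012397 to 11013767. Of the low genes, *col-180* (WBGene00000753) is on chromosome X from 11711378 to 11712280, and *col-95* (WBGene00000670) on chromosome III from 11703994 to 11705091. *col-144* (WBGene00000717), from 9159586 to 9160642, and *col-150* (WBGene00000723), from 10293563 to 10294649, are both on chromosome V. All but *col-95* are on the minus strand. No other annotated gene overlaps any of the 7, so reads of an overlapping gene do not enter their values at these coordinates. Of the low genes, 3 have another collagen gene next to them. *col-96* is 561 bases from *col-95*, *col-149* is 694 bases from *col-150* and *col-145* is 1350 bases from *col-144*. The nearest *col* gene to *col-81* is 30307 bases away, and those nearest to *col-129*, *col-139* and *col-180* are further. Collagen genes share repeated sequence, and rules for reads that match several of them are not given in the sources used here.

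*col-95* had the widest range of the 7. It stood at 271 and 297 RPKM in *hlh-11* KO libraries, at 1.87 and 1.02 RPKM in *hlh-11* OE libraries and at 25.8 and 25.9 RPKM in wild-type libraries. The 3 genotypes did not overlap, and the wild-type libraries were nearly equal. The OE values rest on 38 and 26 reads, with exact Poisson 95% intervals of 26.9 to 52.2 and 16.98 to 38.1 reads, which cover counting error only. The KO mean was 10.98 ± 0.731 times and the OE mean 0.0559 ± 0.0233 times the wild-type mean (SD of the ratio, propagated from the SDs of both groups, n = 2 each). Between KO and OE the means differed 196-fold, with an SD of 82.9 propagated in the same way.

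*col-180* had 293 and 253 RPKM in KO libraries, 15.9 and 21.7 RPKM in OE libraries and 45.3 and 28.2 RPKM in wild-type libraries. Both KO libraries lay above, and both OE libraries below, both wild-type libraries. *col-144* had 208 and 175 RPKM in KO libraries, 22.8 and 28.0 RPKM in OE libraries and 35.1 and 21.8 RPKM in wild-type libraries. Both genes were high in KO, but the OE libraries of *col-144* lay inside its wild-type range. *col-150* had 69.4 and 67.9 RPKM in KO libraries, 5.67 and 9.87 RPKM in OE libraries and 19.0 and 14.2 RPKM in wild-type libraries. Its KO libraries were 3.58-fold or more above the higher wild-type library.

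The abundant genes differed between KO and wild type by a much smaller factor. In OE they lay further below the wild type than *col-144* did. *col-139* had 2591 and 2899 RPKM in KO libraries, 1556 and 1596 RPKM in OE libraries and 2183 and 1954 RPKM in wild-type libraries. *col-129* had 2325 and 2474 RPKM in KO libraries, 1423 and 1532 RPKM in OE libraries and 1913 and 1744 RPKM in wild-type libraries. *col-81* had 2260 and 2508 RPKM in KO libraries, 1243 and 1379 RPKM in OE libraries and 1803 and 1615 RPKM in wild-type libraries. In all 3 genes the KO libraries were above and the OE libraries below both wild-type libraries. Of all 85 genes, 70.6% had the KO pattern and 69.4% the OE pattern, and the choice of the table fixed the direction. These are 60 and 59 genes, out of the 60 chosen with these directions. The nearest KO and wild-type libraries of the 3 genes were 1.19-fold (*col-139*) to 1.25-fold (*col-81*) apart.

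**Figure D1:**
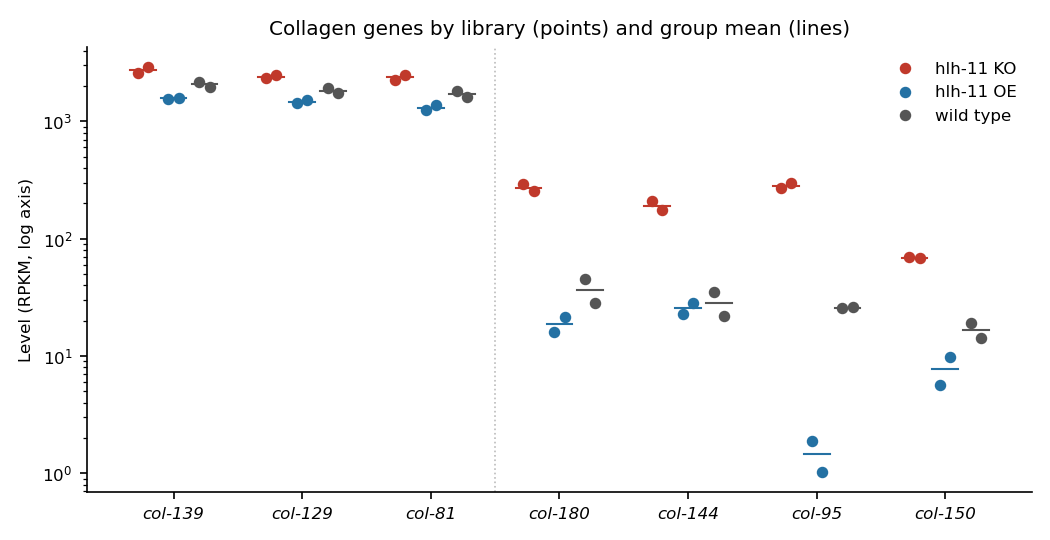
Level of each collagen gene in RPKM (log axis) in every library of *hlh-11* KO, *hlh-11* OE and wild-type worms, with points for libraries and lines for the means of 2 libraries; a dotted line parts abundant from low genes. KO points are highest for all 7 genes, the OE points of *col-95* are near 1 to 2 RPKM, and those of *col-144* lie within its wild-type range.

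The order of the levels was not the same in the 3 genotypes. *col-139* was above the other abundant genes in each, without overlap of the libraries, while *col-129* and *col-81* overlapped in KO and in the wild type and were apart in OE. Among the low genes the order of means in KO was *col-95*, *col-180*, *col-144* and *col-150*, and *col-95* did not differ from *col-180* beyond the spread of the libraries. In OE the order was *col-144*, *col-180*, *col-150* and *col-95*, with no overlap between neighbours. In the wild type *col-180* and *col-144* overlapped, *col-144* and *col-95* overlapped, and *col-150* was below *col-95* without overlap. *col-95* was thus the highest of the low genes in KO by its mean and the lowest in OE.

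The comparison of *hlh-11* KO with wild-type worms asks which genes respond to loss of the factor. All 7 collagen genes rose in KO at an adjusted p under 0.05 from limma on log2(RPKM + 0.5), where 70.6% of all genes tested were higher. That share is 60 genes, as many as had been chosen with a KO mean above the wild-type mean, and the choice of the table fixed the direction. Log2 fold changes, which on this scale understate the change of low values, were 3.43 for *col-95*, 2.91 for *col-180*, 2.76 for *col-144* and 2.03 for *col-150*. They were 0.48 for *col-81*, 0.41 for *col-139* and 0.39 for *col-129*, each with a standard error of 0.16. The low genes held places 1, 2, 3 and 5 among the 85 log2 fold changes from the highest down, and the abundant genes held places 48, 54 and 55. The median over the 7 genes was 2.03, against 0.52 over all genes of the table, which include the 25 with a lower KO mean. The 3 abundant genes, at 0.39 to 0.48, were each below that table median.

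The standard error of 0.16 comes from 1 spread that limma assigned to all genes, an SD of 0.16 on the log2 scale. The genes' own SDs on 3 residual degrees of freedom were 0.27 to 0.35 for the low genes and 0.08 to 0.11 for the abundant ones. The pooled value thus lay below the own SDs of the low genes and above those of the abundant ones. Own SDs on so few degrees of freedom are uncertain, and their departure from the pooled value was not tested. When each gene was tested against its own spread, all 7 still rose in KO, where 58 of all 85 genes did. Adjusted p ran from 0.0107 (*col-95*) to 0.0320 (*col-81* and *col-139*) in limma without empirical Bayes. The KO calls of the abundant genes depended on single libraries, as did those of other genes of the table. Without KO replicate 2 the log2 values were 0.41 (*col-81*), 0.35 (*col-129*) and 0.33 (*col-139*), and 2.04 to 3.36 for the low genes. Without wild-type replicate 2 they were 0.33 for both *col-139* and *col-129*, and without KO replicate 1 that of *col-129* was 0.44.

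In *hlh-11* OE worms, which ask the converse question, 5 of the 7 genes fell, where 60% of all genes tested were lower at an adjusted p under 0.05 from limma. These were *col-95* with a log2 fold change of -3.80, *col-150* with -1.08, *col-180* with -0.93, *col-139* with -0.39 and *col-81* with -0.38. *col-129* stood at -0.31 (adjusted p = 0.0563 from limma) and *col-144* at -0.13 (adjusted p = 0.418 from limma). *col-95* had the lowest value of all 85 genes, while the next collagen gene, *col-150*, held place 11 from the lowest up. The median over the 7 was -0.39, against -0.42 over all genes of the table, which include the 25 with a higher OE mean. In 6 of the 7 genes both OE libraries lay below both wild-type libraries, and this held for 69.4% of the table. In KO both libraries lay above both wild-type libraries for all 7, against 70.6%. These shares also count the 25 genes chosen for the reverse changes. Of the 60 chosen with the collagen genes' directions, 59 had the OE pattern, all but *col-144*, and 60 had the KO pattern. The limma calls were 51 genes lower in OE and 60 higher in KO, to be set against the same 60.

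The OE calls depended on single libraries too, as did those of other genes of the table. A genotype left with 1 library has no spread of its own, and limma then assumes that it varies like the others. Without wild-type replicate 1, the log2 values of *col-139*, *col-81* and *col-129* were -0.31, -0.30 and -0.24. Without wild-type replicate 2 they were -0.47, -0.46 and -0.37. The value of *col-180* was -0.59 without wild-type replicate 1, and that of *col-150* was -0.71 without OE replicate 1. *col-144* had a log2 value of 0.21 without wild-type replicate 1 and of -0.46 without wild-type replicate 2. The value of *col-81* was -0.31 without OE replicate 1. Against each gene's own spread 4 of the 7 genes fell, where 44 of all 85 genes did. In that fit, limma without empirical Bayes, *col-129* passed (adjusted p = 0.0417), while *col-150* (adjusted p = 0.0652) and *col-180* (adjusted p = 0.0765) did not.

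**Figure D2:**
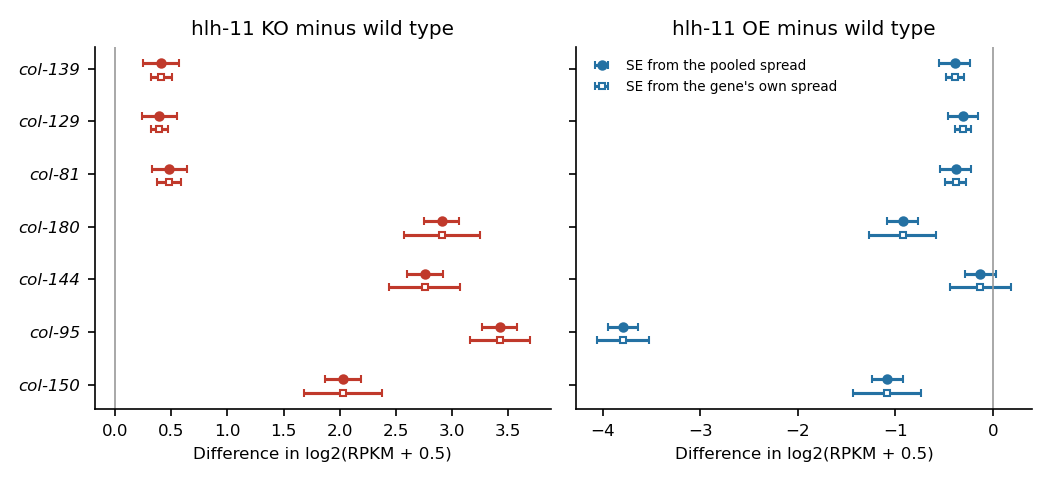
Difference in log2(RPKM + 0.5) of each collagen gene between *hlh-11* KO (left) or *hlh-11* OE (right) and wild type, from 2 libraries per genotype. Filled circles carry the standard error of 0.16 from the spread pooled over 85 genes and open squares the one from the gene's own spread, which is wider for the 4 low genes and narrower for the 3 abundant ones.

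The KO and OE comparisons share the wild-type libraries, so their sizes were set side by side and their sum tested. For the abundant genes the 2 changes were close to mirror images, with sums of 0.02 (*col-139*), 0.09 (*col-129*) and 0.10 (*col-81*), each with a standard error of 0.27. The sum for *col-95* was -0.37, which did not pass (adjusted p = 0.690 from limma). For the other low genes the rise in KO was larger than the fall in OE. The sum was 2.63 for *col-144*, 1.99 for *col-180* and 0.95 for *col-150*. These 3 of 7 differed from 0 at an adjusted p under 0.05 from limma, where 11.8% of all genes tested did. Whether the size of a change also entered the choice of the table could not be told from the table, so these calls, too, describe chosen genes. Against each gene's own spread 0 of the 7 passed after adjustment in limma without empirical Bayes, and 0 of all 85 genes did. In that fit 2 of the 7 had an unadjusted p under 0.05, against 8 of all 85 genes. In limma voom 2 of the 7 passed, against 9 of all 85. Calls of this test depended on single libraries, as did those of other genes of the table. Without wild-type replicate 2 the sums were 1.96 for *col-144*, 1.31 for *col-180* and 0.54 for *col-150*. The sum of *col-150* was 0.57 without OE replicate 2 and 1.35 without wild-type replicate 1. Over all fits, *col-144* kept its call in 12, *col-180* in 11 and *col-150* in only 7 of 13 alternatives.

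**Figure D3:**
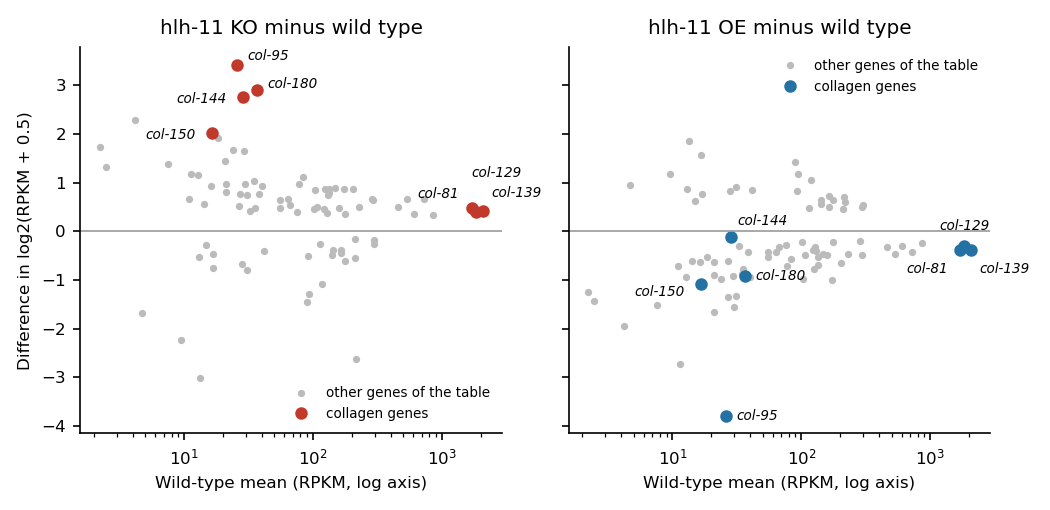
Difference in log2(RPKM + 0.5) from wild type against the wild-type mean in RPKM (log axis) for the 85 genes of the table, in *hlh-11* KO (left) and *hlh-11* OE (right). The 3 abundant collagen genes sit at the right edge with small differences, and the 4 low ones lie at 2.03 to 3.43 in KO and at -3.80 to -0.13 in OE.

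Levels and changes in KO can be set beside those of the rest of the table. Among the genes outside the collagens with a KO mean above the wild-type mean, the 31 below 100 RPKM in the wild type had a median KO log2 fold change of 0.93 and a highest value of 2.28. The 22 at or above 100 RPKM had a median of 0.65 and a highest value of 0.89. The low collagen genes, with a median of 2.84, included 3 values above that highest value of 2.28, and the abundant ones, with a median of 0.41, were below the median of 0.65. In OE the pattern was not the same. The 31 genes below 100 RPKM had a median of -0.77 and values of -2.72 to -0.28, against a median of -1.004 for the low collagen genes, which included *col-95* at -3.80, below that range, and *col-144* at -0.13, above it. The 22 more abundant genes had an OE median of -0.46, against -0.38 for the abundant collagen genes. These are descriptions of levels and changes from the same libraries, without a test.

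In amounts of RNA the abundant genes still made up most of the difference. Summed RPKM of the 3 abundant genes was 7528 ± 498 in KO, 4364 ± 202 in OE and 5606 ± 414 in the wild type (SD, n = 2 each), 1922 RPKM more in KO than in the wild type. The sum of the 4 low genes was 817 ± 34.6 RPKM in KO, 53.4 ± 10.1 RPKM in OE and 108 ± 24.8 RPKM in the wild type, 709 RPKM more in KO. The abundant sum in KO was thus 1.34 times and the low sum 7.59 times its wild-type value. The low genes' share of the summed collagen RPKM was 10.5% and 9.14% in KO libraries, 1.08% and 1.33% in OE libraries and 2.08% and 1.67% in wild-type libraries, with no overlap between genotypes. Reads of all 7 genes were 0.844% and 0.913% of the recovered library total in KO, 0.452% and 0.484% in OE and 0.637% and 0.572% in the wild type, with a Wilson 95% interval of 0.839% to 0.848% for the first KO library, which covers counting error only and is narrower than the gap between the KO libraries.

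**Figure D4:**
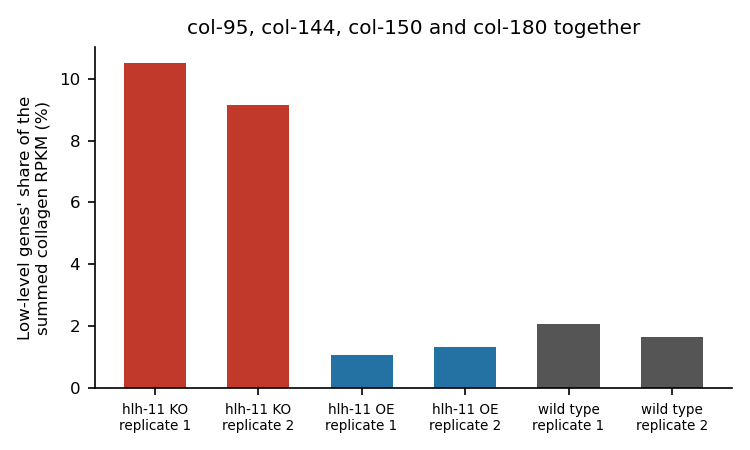
Share of *col-95*, *col-144*, *col-150* and *col-180* together in the summed RPKM of the 7 collagen genes, in percent, for each library. The KO bars reach 10.5% and 9.14%, the OE bars 1.08% and 1.33% and the wild-type bars 2.08% and 1.67%.

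The make-up within each set was also compared. Within the abundant set the shares moved little. *col-139* made up 36.4% ± 0.477 of it in KO, 36.1% ± 1.02 in OE and 36.9% ± 0.161 in the wild type (SD, n = 2 each). *col-81* made up 31.7% ± 0.229 in KO, 30.03% ± 0.817 in OE and 30.5% ± 0.111 in the wild type, and its KO libraries lay above both wild-type libraries. The log2 ratio of *col-81* to *col-129* was -0.041 and 0.019 in KO libraries, -0.19 and -0.15 in OE libraries and -0.086 and -0.11 in wild-type libraries, without overlap between genotypes. Of the 21 ratios between collagen genes, only that of *col-129* to *col-139* overlapped the wild type in KO, and most were apart from it in OE. Within the low set *col-95* made up 34.8% ± 3.79 in KO, 2.87% ± 1.67 in OE and 24.7% ± 5.75 in the wild type. *col-144* made up 23.4% ± 1.92 in KO, 47.8% ± 2.17 in OE and 26.1% ± 2.70 in the wild type, so that it was the largest part of the low set in OE. *col-180* was near a constant part of the set, at 33.4% ± 2.10 in KO, 35.1% ± 0.980 in OE and 33.7% ± 3.49 in the wild type.

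The low genes also differed between the libraries of 1 genotype, and not all in the same way. In the wild type *col-180* and *col-144* were higher in replicate 1 than in replicate 2 by 0.68 and 0.67 on the log2 scale, and *col-150* by 0.40, whereas the difference for *col-95* was -0.0056. In OE, replicate 1 minus replicate 2 was -0.43 for *col-180*, -0.29 for *col-144* and -0.75 for *col-150*, but 0.64 for *col-95*. The OE values of *col-95* rest on few reads, with counting errors of 16.2% and 19.6% (1 SD, Poisson). Whether its difference in OE exceeds counting error was not tested. In KO the differences were 0.21 for *col-180*, 0.25 for *col-144*, 0.03 for *col-150* and -0.14 for *col-95*. The log2 ratio of *col-144* to *col-180* was -0.37 in both wild-type libraries in spite of their difference. It was -0.50 and -0.53 in KO libraries and 0.52 and 0.37 in OE libraries, with no overlap between genotypes. Most of the 21 ratios between collagen genes did not overlap the wild type in KO or in OE, so this does not mark the pair. Counting error of the *col-180* reads was 3.23% and 4.70% of the value in the wild-type libraries (1 SD, Poisson), smaller than the gap between them. The abundant genes differed between replicates by at most 0.16 in any genotype.

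**Figure D5:**
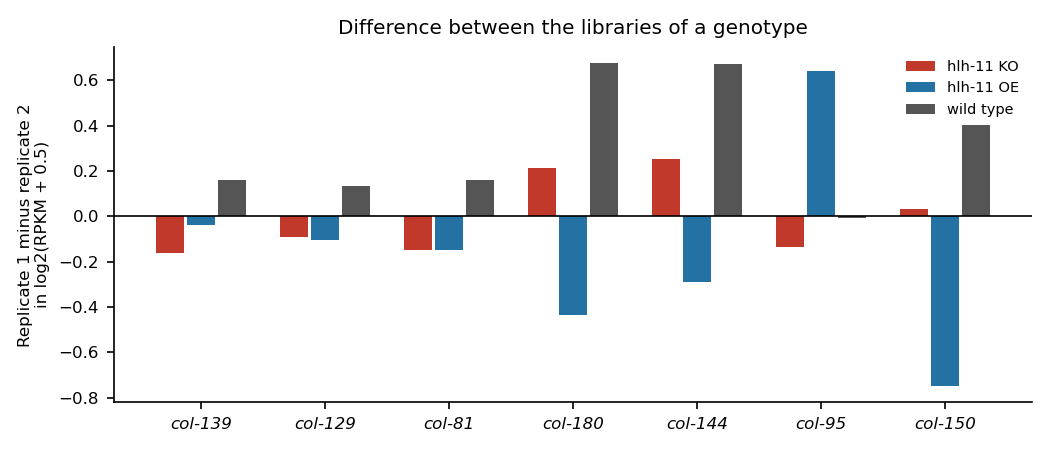
Replicate 1 minus replicate 2 in log2(RPKM + 0.5) for each collagen gene in *hlh-11* KO, *hlh-11* OE and wild type. Bars of *col-180*, *col-144* and *col-150* point up in the wild type and down in OE, the wild-type bar of *col-95* is near 0 and its OE bar points up, and bars of the 3 abundant genes stay within 0.16 of 0.

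The gene outside the collagens closest to each member was the one with the smallest root mean square difference in log2(RPKM + 0.5), relative to the wild-type mean, over the 6 libraries. For the abundant genes such neighbours were close. *gas-1*, a mitochondrial complex I subunit gene, was 0.04 from *col-129*. *cal-5*, named for similarity to calmodulin, was 0.05 from *col-81*, and *bcat-1*, a branched-chain amino acid transaminase gene, was 0.08 from *col-139*. The low genes had no such near neighbour. The closest were *rips-1* at 0.29 from *col-150*, *ccch-1* at 0.56 from *col-144* and at 0.64 from *col-180*, and *F21A3.11* at 1.30 from *col-95*. The log2 values of *F21A3.11* were 2.28 in KO and -1.94 in OE, each nearer to 0 than that of *col-95*. All genes compared had been chosen for opposite changes, so likeness in direction is given by that choice.

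Of 47 annotated genes on a list of collagen processing, moulting and cuticle structure, none is in the table, so the partners of these collagens in the cuticle were not analysed here. Nor is any gene of the lists of yolk and oocyte, muscle or neuron genes. Of the intestine list 1 gene is in the table, the actin gene *act-5*, with log2 values of 0.35 in KO and -0.30 in OE. Of 48 sperm genes, the table holds 6 (*nspd-5* and the major sperm protein genes *msp-50*, *msp-49*, *msp-45*, *msp-33* and *msp-3*), and none was at 0 in any library. Their summed level was 1288 to 1328 RPKM in KO libraries, 417 to 489 RPKM in OE libraries and 636 to 806 RPKM in wild-type libraries. All 6 were higher in KO, by 0.78 to 0.97 on the log2 scale, and lower in OE, with log2 values of -0.97 to -0.46, directions that 60 of the 85 genes share by the choice of the table. The collagen genes had the same directions, except that the OE libraries of *col-144* lay within its wild-type range. The part of the sperm genes in the collagen values was not tested. In whole-worm RNA, fewer cells of a type and less RNA per cell cannot be told apart.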

How the data were processed

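The authors deposited RPKM, 1 column per library (2 each of *hlh-11* KO, *hlh-11* OE and wild type). Reads were aligned to WBcel235 with TopHat2, and the authors called differential expression with DESeq2. FastQC 0.11.5 is also named in the submitters' processing notes. The read counter and its use of strand are not given in the sources used here. Deposited RPKM had no counts beside them, so limma 3.58.1 (R 4.3.3; lmFit, eBayes, two-sided) was fitted to log2(RPKM + 0.5) of all 85 genes and 6 libraries without a low-value filter, with Benjamini-Hochberg adjustment over all 85 and a threshold of 0.05. Library totals and reads were worked out from the RPKM steps. Both steps were tried on simulated data with known answers. All 60 simulated library totals came back right. In 50 simulations of KO against wild type, limma called 1.78% where no difference had been put in. At a simulated log2 difference of 0.5 the rate was 73.8%, and at 1 and 2 it was 100%. These rates were not split by the spread of a gene. How calls fare for genes whose own spread departs from the pooled one was therefore not tested.

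Squared differences between replicates of a genotype were 10.6 to 19.9 times those of counting noise (chi-square per degree of freedom, a ratio of variances). Separate cultures are not described, so the p-values measure only the spread between these samples, which may be technical. The named genes are all 7 *col* genes plus the nearest other gene to each by pattern. Genes of the marker lists found in the table and *col* genes next to members are also named. Abundant means a wild-type mean of at least 100 RPKM. The members and lists were chosen with earlier results of these data known. Coordinates and symbols (85 of 85 identifiers matched) are those of the WBcel235 annotation. Alternatives were other pseudocounts, a filter, a replicate block, limma-trend, no empirical Bayes, limma voom on recovered reads, fits to 2 genotypes and leaving out each library. No sequences were analysed here.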

Additional observations from a re-analysis of the deposited data

How the results depend on the processing

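The count of 7 collagen genes higher in *hlh-11* KO was the same in all alternatives except some that left out 1 library, where it fell. The count of 5 lower in *hlh-11* OE moved in both directions when 1 library was left out, and was 4 to 6 otherwise. The count of 3 genes with unequal changes fell in some fits without 1 library. With a pseudocount of 0.1 RPKM and in limma voom it was 2, where 9 of all 85 genes passed in each. It was 0 without empirical Bayes, where 0 of all 85 genes passed. The number of table genes called also moved when 1 library was left out. *col-144* in OE was called in neither direction in the main fit, which did not hold in every fit without 1 library. It had log2 values from -0.46 (without wild-type replicate 2) to 0.21 (without wild-type replicate 1), and 0.018 without OE replicate 1. The sums of the KO and OE changes of the abundant genes, none of them called, changed sign without wild-type replicate 2. When 1 library was left out they ranged from -0.060 to 0.26 for *col-81*, from -0.048 to 0.22 for *col-129* and from -0.14 to 0.18 for *col-139*, whose sum was also below 0 without KO replicate 2 (-0.063) and without OE replicate 2 (-0.0010). With the replicate number as a block, 7 genes were higher in KO, 5 lower in OE and 3 unequal, so the block changed no call of a collagen gene. Libraries with the same number did not deviate together (correlation over the 85 genes of -0.14 for KO and wild type, -0.11 for OE and wild type and -0.13 for KO and OE), so they were not treated as pairs. Depth limits *col-95* in OE, which rests on 38 and 26 reads, and 2 libraries per genotype limit every test.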
